A study of Mus musculus with 12 samples.

Results

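Peaks of the transcription factors Meis1 and Hoxb13 were examined at the genes of 9 proteins that drive cells from G1 into S phase: the cyclins Ccnd1, Ccnd2, Ccnd3, Ccne1, Ccne2 and Ccna2 and the kinases Cdk4, Cdk6 and Cdk2. The members were the peaks that the authors' annotation assigned to 1 of these symbols, 25 of 52818 in all, namely 4 of the 30534 peaks of the Meis1 list and 21 of the 22284 of the Hoxb13 list. Chromatin came from the ventricles of 3 hearts of CD-1 mice (outbred) taken at postnatal day 15, and the labels name no treatment and no mutation. There were 12 libraries in 4 groups of 3: DNA precipitated with an antibody to Meis1, DNA precipitated with an antibody to Hoxb13, and input chromatin without antibody for each factor. The protocol takes the input from each sonicated sample and shares the rest evenly between both antibodies. The Meis1 replicates carry the numbers 1 to 3 and the Hoxb13 replicates 4 to 6, so the titles do not show which libraries came from the same heart. The values below come from 1 peak list per factor, and how the 3 libraries were combined in it is not stated. As the lists hold no value per heart, no SD and no test accompanies any value, and read depth is unknown. Ventricle is a mixture of cell types, and a peak does not show which of them carried the bound site. All 6 cardiomyocyte genes looked up (Myh6, Tnnt2, Actn2, Ryr2, Ttn and Myl2) had peaks of both factors, beside 23.9% of all protein-coding genes. No genes of another tissue were looked up, so this does not identify the tissue. It concerns binding sites and not expression.

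In the mammalian cell cycle, D-type cyclins bind Cdk4 or Cdk6 and start the phosphorylation of the retinoblastoma pocket proteins, which frees E2F factors to activate genes of DNA synthesis. Cyclin E with Cdk2 completes that phosphorylation at the G1/S boundary, and cyclin A2 with Cdk2 acts through S phase. Heart muscle cells of the mouse largely leave the cell cycle soon after birth, and Meis1, a TALE homeobox protein, and Hoxb13, a posterior Hox protein, are known as factors that hold them out of it.

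The promoter sequences of 5 of the 9 genes were in the RefSeq promoter table (build GRCm38.p6, the assembly behind mm10), with 2 start sites for Ccnd3. The windows below are the 250 bases before a start site, read 5′ to 3′ on the gene's strand, and are shown because peaks of either factor met 3 of them. Capitals mark bases inside a peak. The first is Cdk6 (chr5:3343643-3343892, plus strand), of which 234 bases lay in a Meis1 peak. The others are Cdk2 (chr10:128705052-128705301, minus strand), with 16 bases in a Hoxb13 peak, the inner start site of Ccnd3 (chr17:47593217-47593466, plus strand), with 6, and the outer start site of Ccnd3 (chr17:47504801-47505050, plus strand), with none in a peak of either factor.
Cdk6: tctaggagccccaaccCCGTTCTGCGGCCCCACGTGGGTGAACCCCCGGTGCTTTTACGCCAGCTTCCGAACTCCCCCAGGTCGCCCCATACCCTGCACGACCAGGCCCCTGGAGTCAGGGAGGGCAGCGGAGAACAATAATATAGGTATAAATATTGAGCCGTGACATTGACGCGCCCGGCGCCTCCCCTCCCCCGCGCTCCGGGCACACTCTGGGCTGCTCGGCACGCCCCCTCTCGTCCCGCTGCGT
Cdk2: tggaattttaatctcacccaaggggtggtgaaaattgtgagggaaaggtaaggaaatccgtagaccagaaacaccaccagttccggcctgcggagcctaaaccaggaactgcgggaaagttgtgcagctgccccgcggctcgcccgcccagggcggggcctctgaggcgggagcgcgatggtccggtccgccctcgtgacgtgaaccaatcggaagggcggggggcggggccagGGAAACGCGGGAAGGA
Ccnd3 inner: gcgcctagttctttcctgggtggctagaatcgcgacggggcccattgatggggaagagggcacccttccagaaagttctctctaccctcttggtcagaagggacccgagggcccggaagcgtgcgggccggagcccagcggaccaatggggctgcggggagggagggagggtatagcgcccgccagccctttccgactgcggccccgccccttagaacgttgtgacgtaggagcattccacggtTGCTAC
Ccnd3 outer: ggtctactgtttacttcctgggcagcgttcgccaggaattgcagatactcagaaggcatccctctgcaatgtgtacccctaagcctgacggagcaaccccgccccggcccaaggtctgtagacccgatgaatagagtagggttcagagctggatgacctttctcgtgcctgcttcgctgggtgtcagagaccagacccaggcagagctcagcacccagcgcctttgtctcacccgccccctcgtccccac
The capitals show that the Meis1 peak sat over the bases before the Cdk6 start, whereas the Hoxb13 peaks of Cdk2 and inner Ccnd3 reached only the last bases before the start and lay mainly on transcribed sequence. The 6 windows of the 5 genes (these, Ccne1 and Cdk4) were searched on both strands for 3 short motifs. The core of the Meis motif, TGACAG, occurred in 0 of the 6 windows, beside 15.9% of all 32851 windows in RefSeq's set and 36.0% of the 1304 that overlapped a Meis1 peak. A core of the Hoxb13 motif, CAATAAA, also occurred in 0 of the 6, beside 4.2% of all windows and 2.34% of the 5379 that overlapped a Hoxb13 peak. The CCAAT box, whose last letters can overlap the start of that core, was present once at Cdk2, with its leading base 45 bases before the start. It was present once at inner Ccnd3, 108 bases before the start, and in 33.8% of all windows. Of the 6 windows, only that of Cdk6 met a Meis1 peak and only those of Cdk2 and inner Ccnd3 a Hoxb13 peak. The 6 are therefore a set unlike the windows that overlapped a peak. Most sequence of those Hoxb13 peaks lay outside the windows and was not searched. A motif match here describes the letters of the window and no binding.

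By the authors' assignment Hoxb13 peaks were at most of the 9 genes and Meis1 peaks at few. The Hoxb13 list had peaks for Ccnd1, Ccnd2, Ccnd3, Ccne2, Cdk4, Cdk6 and Cdk2, which is 7 of 9 (77.8%), where 44.4% of the 21887 protein-coding genes had one. The Meis1 list had peaks for Ccnd3 and Cdk6, 2 of 9 (22.2%), against 38.2% of protein-coding genes, and these were also the members with peaks of both factors, against 23.9%. Hoxb13 promoter peaks, within 1 kb of a start site by the authors' class, were present at Ccnd2, Ccnd3, Ccne2 and Cdk2, 4 of 9 against 30.7%. A Meis1 promoter peak was present at Cdk6, 1 of 9 against 8.16%. Sites shared by overlap of at least 1 bp were present at Ccnd3, 1 of 9 against 5.89%. Ccne1 and Ccna2 had no peak of either factor, 2 of 9 (22.2%) against 41.3% of protein-coding genes. Counted instead by position, as any peak in the gene body plus 10 kb whatever its assigned gene, Meis1 peaks were at 4 of 9 members (39.1% of protein-coding genes) and Hoxb13 peaks at 6 of 9 (52.8%). These are counts of a short list beside all genes; no test was made of them, and none is called particular to the list.

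**Figure D1:**
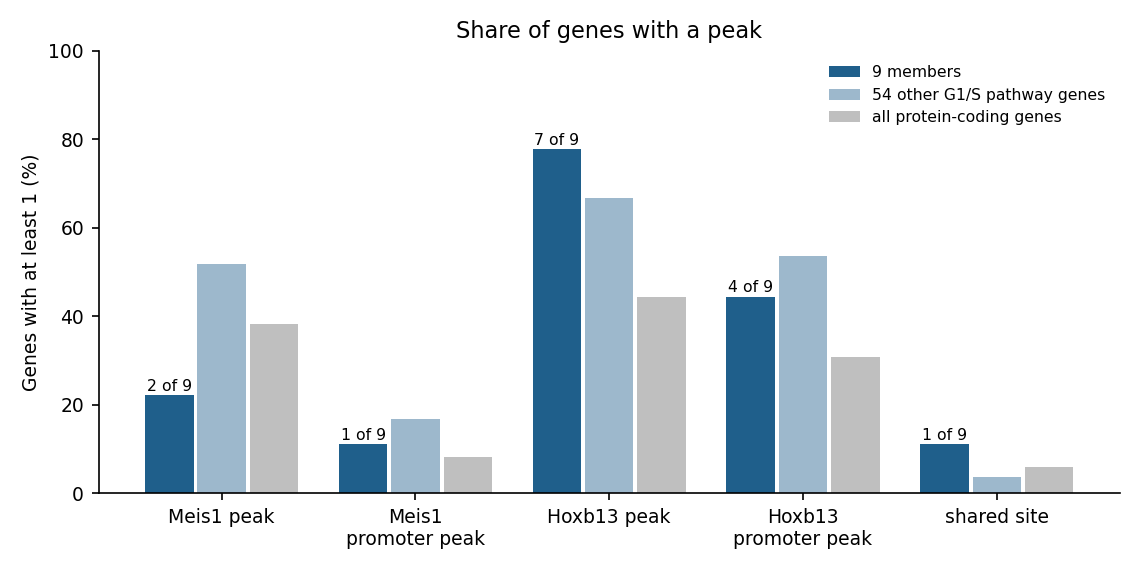
Bars give the percentage of genes (y axis) with at least 1 assigned peak of each kind, for the 9 members, 54 other G1/S pathway genes and all 21887 protein-coding genes. Hoxb13 peaks were at 7 of 9 members and Meis1 peaks at 2 of 9.

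The share of genes with a peak differed with the room around a gene, so each member was set beside genes of like locus size. Locus size, counted as the body together with 0.5 of the distance to the next protein-coding gene on each side, was 5.43 kb for Cdk4, 8.23 kb for Ccna2, 14.7 kb for Cdk2 and 22.4 kb for Ccne2. It was 84.6 kb for Ccne1, 96.0 kb for Ccnd3, 131 kb for Ccnd1, 182 kb for Ccnd2 and 537 kb for Cdk6. For Cdk6, the first protein-coding gene of its chromosome, the whole distance to the assembled chromosome start was counted on that side. With all genes ranked by locus size and divided into 10 equal classes, 79.1% of genes in the class of Cdk6 had a Meis1 peak and 65.8% a Hoxb13 peak. In the class of Ccnd1 and Ccnd3 the shares were 52.8% and 51.4%, and in that of Cdk4 and Ccna2, the smallest loci, they were 13.5% and 39.2%. In the class of Ccnd2 they were 62.6% and 55.5%, and in that of Ccne1 42.3% and 44.2%. In the class of Ccne2 they were 22.7% and 34.0%, and in that of Cdk2 17.4% and 33.5%. The Meis1 share was higher in each larger class. The Hoxb13 share was not ordered in this way among small loci, being 33.5%, 34.0% and 37.2% in the next 3 classes after the smallest. Cdk4, with a locus among the smallest, had a Hoxb13 peak, and Ccnd2, with a locus among the larger, had no Meis1 peak. Genes were not matched for base composition. Promoter windows that overlapped a peak had a median GC content of 63.6% for Hoxb13 and 59.2% for Meis1, beside 52.4% of all windows. The members' windows described above ran from 59.6% to 76.0%, and the part of GC content in the shares was not tested.

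**Figure D2:**
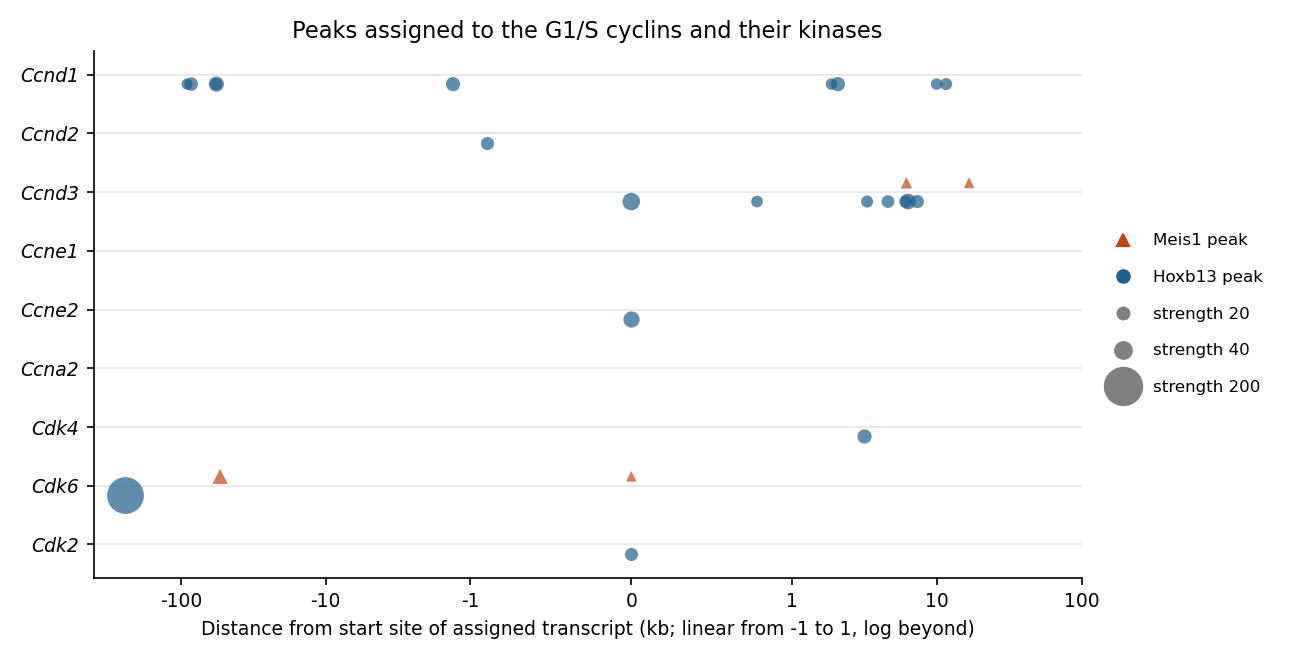
Each symbol is a peak, placed by its distance in kb from the start site of the transcript the authors assigned it to (x axis, linear between -1 and 1 and logarithmic beyond) in the row of its gene. Symbol area is proportional to strength, a value the authors gave each peak, Meis1 as triangles and Hoxb13 as circles; most Hoxb13 peaks belong to Ccnd1 (9) and Ccnd3 (7).

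The D-type cyclins held 17 of the 21 Hoxb13 peaks and 2 of the 4 Meis1 peaks. Ccnd1, the cyclin through which growth factor signals most often reach Cdk4 and Cdk6, had 9 Hoxb13 peaks and 0 Meis1 peaks. As many or more Hoxb13 peaks were assigned to 159 protein-coding genes, Ccnd1 included (0.726%), and to 1.05% of the genes in its class of locus size. Peaks of 1 list can overlap each other, and 2 pairs did so here, so the 9 peaks covered 7 separate regions. The gene lies on chromosome 7 from 144929931 to 144939831 on the minus strand (RefSeq, GRCm38).

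The Ccnd1 peaks formed a group at the gene and a group far upstream. Peak strength, the authors' value per peak with no stated unit, is used only to order peaks within a list, where it ran from 17.8 to 697 for Hoxb13 with a median of 21.4. At the gene, a peak in intron 2 (144937457 to 144937852) had strength 29.6 and overlapped by 192 bp a peak of strength 18.8 in exon 2, and a peak 1.32 kb upstream of the start site had strength 29.3. At the other end of the gene, a peak classed as 3' UTR had strength 18.9, and a peak of strength 20.9 lay 1.62 kb beyond the gene body, in an intron of its neighbour Oraov1 (LTO1 in RefSeq). Upstream, an overlapping pair about 57 kb from the start site had strengths of 33.4 (144996946 to 144997341) and 21.0. A peak of strength 26.2 lay 85.0 kb upstream and one of 17.9 lay 90.8 kb upstream, the latter near the bottom of the list at rank 21850. None of the 9 was in the promoter class, and none was in the strongest 10% of the list.

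Ccnd2, the D-type cyclin known for its role in the growth of pancreatic beta cells, had a single Hoxb13 peak and 0 Meis1 peaks. The peak (chromosome 6, 127151946 to 127152341, strength 25.1, rank 6952) was classed as promoter at 0.898 kb upstream of the start of an inner transcript. It covered the outer start of the RefSeq gene at 127152188 and also overlapped the neighbouring gene 9330179D12Rik. The nearest Meis1 peak lay 42.1 kb from it, and 15.3 kb from the gene body, assigned to Tigar.

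Ccnd3, the D-type cyclin widely expressed in differentiated tissues, was the only member whose gene body held assigned peaks of both factors. It had 7 Hoxb13 peaks. As many or more were assigned to 308 protein-coding genes, Ccnd3 included (1.41%), and to 2.29% of its class of locus size. The strongest (47593461 to 47593856 on chromosome 17, strength 44.6, rank 1129) lay on the inner start site at 47593467, and a weaker one (19.7) lay 0.782 kb past it. No peak of either factor lay on the outer start site at 47505051, which opens the long first intron. The remaining peaks after the inner start were classed as 3' UTR, with strengths of 21.0, 23.5, 22.4 and 25.3. The last of these (47600800 to 47601195) lay beyond Ccnd3 and overlapped the next gene, Bysl, which acts in ribosome biogenesis, and the one before it overlapped both genes. Together the 6 peaks from the inner start onward formed a run of 7.74 kb, with gaps of at most 5 kb between neighbours. With lone peaks also counted as runs, 134 of 16502 runs of the Hoxb13 list (0.812%) held 6 peaks or more. Those runs held 5.18% of all Hoxb13 peaks.

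The shared site of Ccnd3 lay in its first intron on the long transcript, 6.17 kb past the outer start site. There a Meis1 peak (47511217 to 47511500, strength 19.2, rank 13842) overlapped a Hoxb13 peak (47511380 to 47511775, strength 35.6, rank 2360). The overlap was 121 bp, or 42.6% of the Meis1 peak and 30.6% of the Hoxb13 peak, with summits 219 bp apart. Over all 1791 overlapping pairs of the lists the median distance between summits was 160 bp. The Ccnd3 site was no longer counted as shared under a limit of 100 bp between summits or a reciprocal overlap of 50%. The other Meis1 peak of Ccnd3 (strength 16.9, rank 21671) lay 16.7 kb into the gene, 9.94 kb from the nearest Hoxb13 peak.

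**Figure D3:**
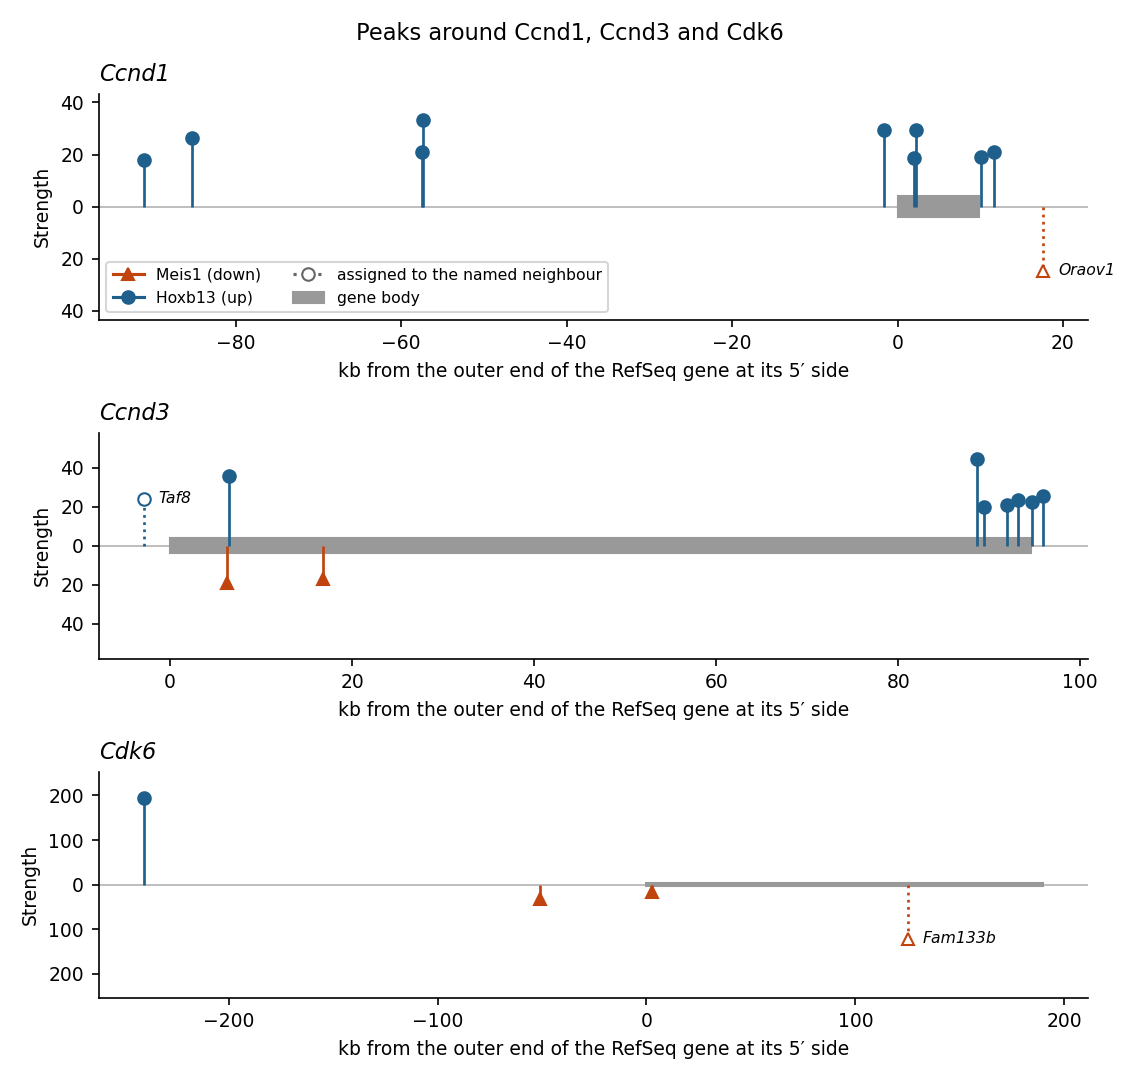
Peaks around Ccnd1, Ccnd3 and Cdk6 by distance in kb from the 5′ end of the RefSeq gene (x axis), with Hoxb13 strength upward and Meis1 strength downward (y axis; strengths of the lists are not on a common scale). Open symbols are peaks the authors assigned to the neighbour named; the 6 Hoxb13 peaks at the inner start and end of Ccnd3 and the Meis1 peak inside Cdk6 assigned to Fam133b can be seen.

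Of the cyclins that act with Cdk2, Ccne2 alone had a peak. This E-type cyclin had a Hoxb13 peak on the start site of its assigned transcript (chromosome 4, 11191086 to 11191481), of strength 38.0 and rank 1928, in the strongest 10% of the list, and the region is shared with the gene A630034I12Rik. The nearest Meis1 peak was 78.1 kb away. Ccne1, the other E-type cyclin, had its nearest Meis1 peak 68.6 kb and its nearest Hoxb13 peak 75.6 kb from the gene body, both assigned to 1600014C10Rik. Ccna2, the cyclin of S phase, had them at 34.2 kb (assigned to Gm11549) and 89.2 kb (assigned to Mir7009). No peak of either list lay within 10 kb of either gene.

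Each of the 3 kinases had 1 Hoxb13 peak, at a different place. Cdk2, the partner of cyclins E and A, had its peak on the start site (chromosome 10, 128704672 to 128705067, strength 24.5, rank 7405), in a region that also belongs to Pmel. Cdk4 had its peak (127066730 to 127067125 on the same chromosome, strength 29.3, rank 4318) 3.13 kb past the start, in the 3' UTR class. No Meis1 peak was assigned to either. Neither the Cdk2 peak nor the Cdk4 peak was among the strongest 10% of the list.

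Cdk6, the other partner of D-type cyclins, had 2 Meis1 peaks and 1 Hoxb13 peak, and these lay far apart. The Meis1 promoter peak (chromosome 5, 3343659 to 3343942) had strength 16.1 and rank 26843 of 30534, so it stood at the 87.9% mark counted from the strongest. It lay on the start site at 3343893, which is inside the RefSeq gene, whose outer end is at 3341004. The distal Meis1 peak (3289937 to 3290220, strength 33.1, rank 4600) lay 53.7 kb upstream. The authors classed it as intergenic, and in RefSeq it overlapped the long noncoding genes Gm36548 and Gm36470. Within a list whose Meis1 median was 18.7, the promoter peak was below the median and the distal peak above it.

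The Hoxb13 peak of Cdk6 (3100127 to 3100409) had strength 195 and rank 43, the highest of the members' 21 Hoxb13 peaks, and it lay 243 kb upstream of the gene. It was 283 bp wide, a width that 0.996% of the Hoxb13 list had or fell below, where 98.8% of the list has 1 common, larger width. None of the 100 strongest Hoxb13 peaks had that common width, and the part of width in the strength was not tested. The RefSeq table places 0 protein-coding genes between the assembled start of chromosome 5 and Cdk6, so peaks of that stretch have no other protein-coding gene on that side. Among the 28 Hoxb13 peaks of all chromosomes that start before 3.2 Mb, 6 were in the strongest 10%, with a median rank of 7171. With peaks limited to 100 kb from a start site, an alternative added after the data were seen, Cdk6 had no Hoxb13 peak and 6 of 9 members kept one, against 42.8% of genes. The nearest Meis1 peak was 190 kb away. The Hoxb13 peak nearest to the Cdk6 body lay 12.9 kb past its end, had strength 34.7 and was assigned to Fam133b.

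A stronger Meis1 peak lay inside Cdk6 but was assigned to another gene. It sat in intron 4 of Cdk6 (3466272 to 3466450), with strength 122 and rank 621, in the top 2.03% of the list. By its coordinates it was narrower than the 284 bp of 95.0% of Meis1 peaks, and the part of width in the strength was not tested. The authors' nearest-start rule gave it to Fam133b, whose start site was 77.4 kb away. A Meis1 peak of strength 24.5 lay 7.58 kb beyond the end of Ccnd1 and was assigned to Oraov1. The 4 members with a Meis1 peak in the gene body plus 10 kb were Ccnd1, Ccnd3, Cdk4 and Cdk6, and Ccnd1 and Cdk4 had theirs only through peaks assigned to a neighbour.

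The members' peaks were mostly of moderate strength. The 21 Hoxb13 peaks ran from 17.9 to 195 with a median of 25.1, beside 21.4 for the whole list. Of them 14 were in the stronger 50% and 3 in the strongest 10%, those of inner Ccnd3, Ccne2 and distal Cdk6. The 4 Meis1 peaks ran from 16.1 to 33.1 with a median of 18.1, beside 18.7 for the list, and 0 were in the strongest 10%. By class, 5 of the 21 Hoxb13 peaks were in promoters (40.3% of the list), 6 in 3' UTRs (2.98% of the list) and 6 intergenic (25.3%). All 6 peaks of the 3' UTR class were assigned to Ccnd1, Ccnd3 and Cdk4, with 4 at Ccnd3, so they share loci and are not separate observations. The class does not name the gene whose 3' UTR is meant. The last of the Ccnd3 peaks lay beyond that gene and overlapped only Bysl. The Ccnd3 peak before it and the Ccnd1 peak each overlapped a neighbouring gene as well. Within 10 kb of a start site lay 15 of the 21, beside 58.9% of the list.

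**Figure D4:**
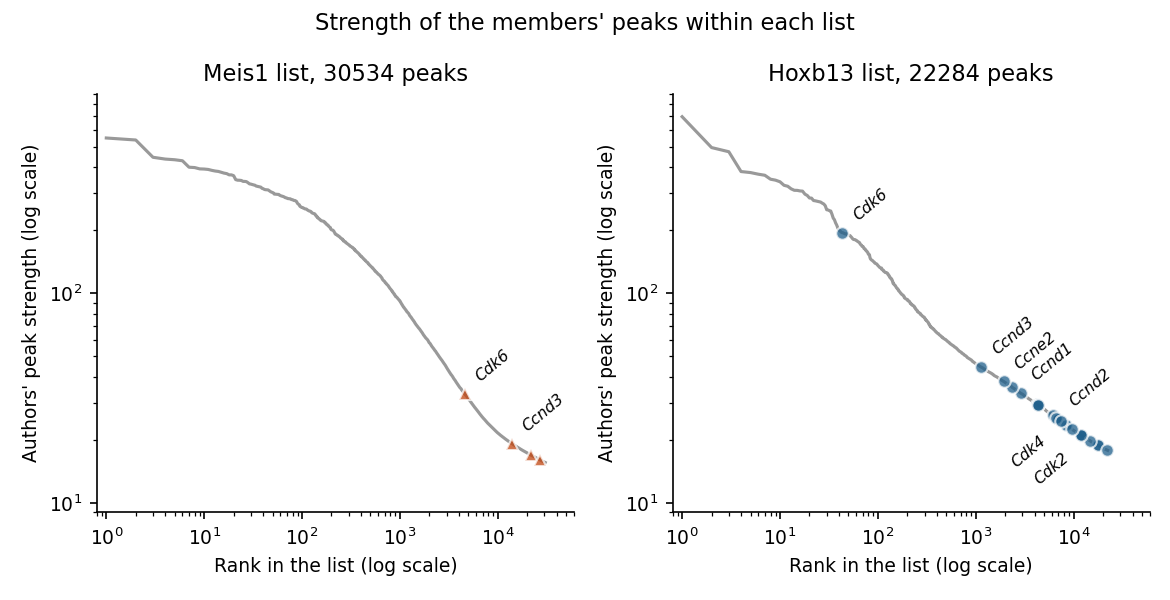
Strength of each peak (y axis, log scale) against its rank in its own list (x axis, log scale), with the whole list in grey and the members' peaks as symbols, labelled at each gene's strongest peak. The distal Hoxb13 peak of Cdk6 at rank 43 stands above the other members' peaks.

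Distance to the other factor followed no single pattern among the members. The nearest Meis1 peak lay a median of 16.7 kb from the 21 Hoxb13 peaks, beside 19.9 kb for the whole Hoxb13 list, with a range from 0 to 190 kb. Within 10 kb of a Meis1 peak lay 4 of the 21, which were 2 at the far end of Ccnd1, 1 at the shared site of Ccnd3 and 1 at Cdk4. In the whole Hoxb13 list 35.7% of peaks lay that near.

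Among 54 other genes of the G1/S pathway (55 were listed and 1, Cdk3-ps, was not in the protein-coding table), 36 (66.7%) had a Hoxb13 peak and 28 (51.9%) a Meis1 peak, beside 44.4% and 38.2% of all protein-coding genes. Promoter peaks were present at 29 (53.7%) for Hoxb13, beside 30.7%, and at 9 (16.7%) for Meis1, beside 8.16%. No peak of either factor was assigned to 10 of the 54, where 41.3% of all protein-coding genes had none. The list included 4 other cyclins and kinases of the cycle (Ccna1, Ccnb1, Ccnb2 and Cdk1), not all of which act at G1/S. Of these 4, 3 had Meis1 peaks and 2 had Hoxb13 peaks, with a Hoxb13 promoter peak at 0. Hoxb13 peaks were at 8 of 13 pocket protein and E2F genes (61.5%) and 5 of 7 Cdkn inhibitor genes (71.4%). They were at 7 of 8 other regulators of cyclin-dependent kinases (87.5%). Those 8 were Cdc25a, Cdk7, Ccnh, Mnat1, Cks1b, Cks2, Wee1 and Pkmyt1, of which Wee1 and Pkmyt1 inhibit the kinases. Hoxb13 peaks were also at 7 of 8 genes of cyclin turnover (87.5%), 4 of 10 of replication licensing and 3 of 4 Myc and beta-catenin genes. Meis1 peaks were at 7, 5, 2, 4, 3 and 4 genes of these 6 groups in the same order. Groups of this size were compared with all genes by no test.

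By presence of each factor in and outside promoters, the pathway genes with the same pattern as Ccnd3 (Hoxb13 in both places, Meis1 outside promoters) were E2f3, E2f7, Cdkn2c and Mycn. This pattern was held by 5.77% of protein-coding genes. E2f3, an activating E2F, had a Hoxb13 peak of strength 144 and rank 87 0.069 kb from its start site. That rank is among the 100 strongest, none of which had the common width of the list, and the part of width in the strength was not tested. Cdkn2c, which encodes the Cdk4 and Cdk6 inhibitor p18, had one of 61.7 on its start site, and Mycn had a Meis1 peak of 131 at a distance of 35.9 kb. The Meis1 peaks of E2f3 (17.3) and Cdkn2c (16.9) were below the list median of 18.7. At E2f7 the strongest peaks were 28.5 for Meis1 and 25.7 for Hoxb13. Shared sites of both factors were present at 2 of the 54 (3.7%), beside 5.89% of all protein-coding genes. At Cdkn1b, the gene of the inhibitor p27, the site was in the promoter with summits 79 bp apart (Meis1 strength 61.8, Hoxb13 strength 28.2). At Ccnh, the cyclin of the kinase that activates cyclin-dependent kinases, the closer of 2 pairs lay 122 kb upstream with summits 42 bp apart.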

How the data were processed

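Chromatin immunoprecipitation sequencing of mouse ventricle was analysed from 2 deposited peak lists, 1 per factor. The build was mm10, per the submitters' processing notes, which also name ChIPseeker, Picard, deepTools 1.6 and Bowtie2 2.2.3 without their roles. For the peak caller, its threshold and the handling of replicates, the sources used here give nothing. Each list holds the authors' deposited signal value per peak, called strength, and a deposited score of unnamed scale, which was not used. Widths, summit offsets and distances to start sites are in bases; 95.0% of Meis1 peaks are 284 bp wide and 98.8% of Hoxb13 peaks 396 bp, so a Hoxb13 peak covers more sequence.

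Peaks were taken by the authors' gene symbol and compared with all protein-coding genes of a RefSeq table (GRCm38.p6), matched by Entrez number: 9830 of 9840 genes of the Meis1 list and 10969 of 10981 of the Hoxb13 list were found. Positions are 1-based. Computations used Python 3.11.15 and pandas 2.3.3; the overlap routine was tested on simulated intervals. No test was made, because no value per library was examined, and input libraries entered no comparison.

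The members and gene lists were chosen with earlier results of these data known. Every member is named; of the other pathway genes, those with the pattern of a member that has a shared site and those with a shared site of their own; and neighbours that were assigned a peak within 10 kb of a member. Genes that share a member's peak region, and those assigned the nearest peak of a member farther off, were named after their values were seen. Alternatives covered peak strength, list length, distance, assignment and overlap.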

Additional observations from a re-analysis of the deposited data

How the results depend on the processing

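Of 38 alternative values for 7 counts, 24 stayed within 1.5 times the value reported and 14 did not. In the strongest 10% of each list, 3 Hoxb13 peaks remained, at 3 members, with a promoter peak at 2, while 0 Meis1 peaks, 0 members with a Meis1 peak, 0 with a Meis1 promoter peak and 0 with a shared site were left. In the stronger 50% there were 2 Meis1 peaks and 0 members with a Meis1 promoter peak, beside 6.13% of protein-coding genes. That promoter count was also 0 with the same number of strongest peaks from each list, beside 7.2%. Within 10 kb of the start site 2 Meis1 peaks were left. By gene body plus 10 kb, 4 members had a Meis1 peak. A shared site was present at 0 members with summits at most 100 bp apart, beside 2.19% of protein-coding genes. With a reciprocal overlap of 50% it was present at 0, beside 2.74%. Apart from the count by gene body plus 10 kb, these alternatives keep fewer peaks or pairs by construction. The background of all genes falls with them: in the strongest 10%, 8.32% of genes had a Hoxb13 peak and 9.05% a Meis1 peak. There 6.58% had a Hoxb13 promoter peak, 1.44% a Meis1 promoter peak and 0.265% a shared site. No paired analysis was possible because the lists give no value per replicate and the factors share no replicate number. For the same reason no replicate could be left out. Counts of 9 genes are small, and read depth is unknown.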

Other observations

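Several peaks near the members belong to their neighbours by the authors' assignment. A Hoxb13 peak of strength 63.2 and rank 429, in the top 1.93% of its list, lay 1.25 kb from the end of Cdk2 at the promoter of Rab5b, and was stronger than the peak of Cdk2 itself. At Cdk4, a Hoxb13 peak of strength 22.2 lay 2.67 kb beyond the gene at the promoter of Tspan31, and a Meis1 peak of strength 27.2 lay 5 kb before it in an exon of March9. At Ccnd3, a Hoxb13 peak of strength 23.9 lay 2.70 kb before the outer start at the promoter of Taf8. Around Ccne1, which had no peak, 10 Meis1 and 10 Hoxb13 peaks lay within 100 kb of the gene body, and the nearest of each was assigned to 1600014C10Rik.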
